A study of Rattus norvegicus with 12 samples.

Results

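The effect of a high-protein diet after weaning on promoter methylation was examined in kidneys of rats whose mothers had been short of protein in pregnancy. The 3 arrays of the mLP-HP group were compared with the 3 arrays of the mLP-CN group, which makes 6 of the 12 arrays of the series. The rats were males of the SHRSP strain, a stroke-prone line bred for spontaneous hypertension, and DNA was taken from the kidney at 6 weeks of age. The dams of both groups received the low-protein diet (LP, 9% casein) during pregnancy and were returned to the control diet (CN, 20% casein) after delivery. From 4 weeks of age the mLP-CN offspring received the CN diet and the mLP-HP offspring a high-protein diet (HP, 40% casein). Of the other 6 arrays, used here for the spread between arrays and as a reference, 3 belonged to the mCN-CN group (20% casein throughout) and 3 to the mLP-LP group (9% casein in pregnancy and again after weaning). Nothing in the labels states that the arrays of a group came from separate litters, so the p-values measure the spread between these arrays. The files pair no probe with a gene, and promoters are therefore named by their position on build rn4; for the same reason the kidney label could not be set against marker genes.

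DNA methylation is the addition of a methyl group to cytosine, in mammals mostly where a guanine follows. Promoters rich in such CpG sites are mostly unmethylated, CpG-poor promoters are mostly methylated, and dense methylation of a promoter is generally linked to silencing of its gene. In methylated DNA immunoprecipitation (MeDIP), an antibody against 5-methylcytosine enriches methylated fragments. The precipitated DNA was labelled with Cy5 and the unprecipitated input DNA with Cy3, and both were hybridised together to a promoter array. The log2 ratio of Cy5 to Cy3 is the measure of methylation around a probe, and it is a relative value with no fixed scale of percent methylated. The input contains the same DNA without the antibody step, so the Cy3 channel shows where the ratio differs together with its denominator.

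Of 172669 probes, those lying less than 1000 bp apart were joined into 16123 regions, called promoters below. The 16023 promoters with at least 3 probes were tested, and their ratio was the mean over the probes. They held a median of 10 probes over 1664 bp. The positions of transcription start sites are not in the files, and position is given below by chromosome, by the distance between neighbours, and by the distance of a probe from the middle of its promoter.

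The arrays were read in 5 scans on 3 days, numbered here in order of time. The mLP-CN replicates 4, 5, and 6 were all in scan 1, with mCN-CN replicate 3. Scan 4 held mLP-HP replicates 8 and 9 together with mLP-LP replicate 10, and scan 5, made on the same day, held mLP-HP replicate 7 alone. No scan and no day held arrays of both groups, so the HP diet and the scan cannot be told apart in this comparison. The median Cy5 intensity of a probe was 94 to 103 on the mLP-CN arrays and 125 to 153 on the mLP-HP arrays, while the median Cy3 intensity was 151 to 166 and 122 to 161.5. Between 71.0% and 76.1% of the probes on these 6 arrays were well above background in Cy5, and 86.8% to 92.3% were in Cy3. The median local background of Cy3 was 22 to 24 on the mLP-CN arrays and 14 on each mLP-HP array, and 250 to 1805 against 2328 to 4605 probes were flagged as outliers and left out.

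Both directions of change were common. The log2 ratio was higher in the mLP-HP group at 3403 promoters (21.2% of those tested) and lower at 2733 (17.1%), together 38.3%, at an adjusted p under 0.05 in limma. The median difference was 0.25 among the promoters that were higher and −0.24 among those that were lower, with a median over all promoters of 0.01 and a median residual SD of 0.08. The 3 values of each group did not overlap at 9036 promoters (56.4%), of which 4911 (30.6%) lay higher and 4125 (25.7%) lower in the mLP-HP group. Of all calls, 55.5% were in the higher direction. This share was 72.7% when the arrays were centered on their median without quantile normalization, which moved the median difference of all promoters to 0.11, and 44.97% when the signals processed by the scanner software were used, also without quantile normalization. It was 69.3% with the scan as a random block. Centering within classes of input brightness turned the balance, with 6.28% of calls higher (190 higher and 2835 lower).

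The mLP-LP replicate 10 lay apart from the other arrays of its group. Over the 3403 promoters that were higher, the median distance from the mLP-CN mean was 0.26, 0.24, and 0.26 in mLP-HP replicates 7, 8, and 9. It was 0.23 in mLP-LP replicate 10, from the scan of mLP-HP replicates 8 and 9, and 0.12 and 0.14 in mLP-LP replicates 11 and 12. The mCN-CN replicates 1, 2, and 3 were at 0.11, 0.12, and 0.09. Thus 1 array of the 9% casein diet stood beside the 40% casein arrays, and the other mLP-LP arrays stood beside the mCN-CN arrays. Whether its scan or its label sets this array apart was not tested, and it enters both the estimate of the spread and the reference level from the mCN-CN and mLP-LP arrays used below.

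Over the 2733 promoters that were lower, the same order was found. The medians were −0.23, −0.25, and −0.26 in the mLP-HP arrays, −0.22 in mLP-LP replicate 10, and −0.10 and −0.16 in mLP-LP replicates 11 and 12. After loess normalization within each array, which removes the dependence of the ratio on brightness, mLP-LP replicate 10 was at 0.21 over the promoters then called higher and replicates 11 and 12 were at 0.05 and 0.03, where the mLP-HP arrays were at 0.21 to 0.25. The part of the scan in these differences was not tested, because no scan held both groups. With the scan as a random block, 1075 promoters were higher (6.71%) and 476 were lower (2.97%), together 9.68%. In the fit without the scan block, mLP-LP replicate 10 enters only the estimate of the spread. Leaving it out of that fit gave 3829 higher and 3110 lower promoters. With the scan block it can also shift the difference, since it shares a scan with mLP-HP arrays. The block fit was not repeated without it.

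**Figure D1:**
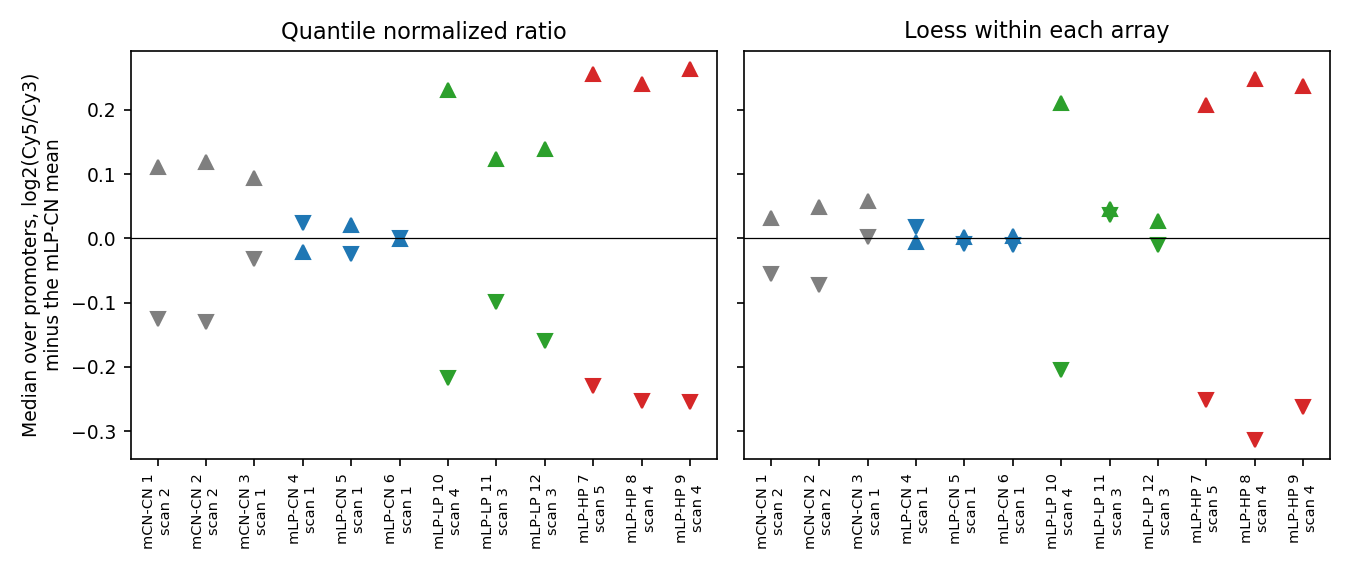
Median distance from the mLP-CN mean (log2 ratio) on each of the 12 arrays, over promoters called higher (upward triangles) and lower (downward triangles) in the mLP-HP group, for the quantile normalized ratio (left) and after loess within each array (right). In both panels mLP-LP replicate 10, read in scan 4, lies next to the mLP-HP arrays, at 0.23 and −0.22 on the left, and away from mLP-LP replicates 11 and 12.

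The input channel itself differed between the groups. Cy3 was higher in the mLP-HP group at 3798 promoters (23.7%) and lower at 2807 (17.5%), together 41.2%, and Cy5 was higher at 3307 (20.6%) and lower at 1998 (12.5%), together 33.1%, by limma at an adjusted p under 0.05. Each channel was quantile normalized on its own, so an overall gain or loss of brightness does not enter these counts. With the scan as a random block, 1148 promoters were higher and 107 lower in Cy3, and 739 were higher and 18 lower in Cy5, so that few lower calls were left in either channel. The 5305 calls in Cy5 became 3101 without mLP-CN replicate 5, 3144 without mLP-CN replicate 6, 3272 without mLP-HP replicate 9, 3324 without mLP-HP replicate 7, and 3525 without mLP-CN replicate 4. Of the 3403 promoters with a higher ratio, 943 had a lower input and 508 a higher input. Of the 2733 with a lower ratio, 932 had a higher input and 226 a lower one. The precipitated channel moved in the direction of the ratio at 1091 of the higher and 628 of the lower promoters, and against it at 215 and 200.

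The input was called quiet at a promoter when its difference was under 0.1 in size on the log2 scale and its unadjusted p in limma was at least 0.05. This held for 6489 promoters, 40.5% of those tested. Among them 2425 differed in the ratio, 1303 higher and 1122 lower. The share that differed was 37.4% where the input was quiet and 38.9% where it was not, against 38.3% of all promoters. The median differences were also close, at 0.24 and −0.23 with a quiet input. A quiet input is an estimate near 0 and not proof of equality, since the narrowest 95% interval of an input difference reached 0.101 to either side and the median one 0.127. On the arrays, the 1303 higher promoters had medians of 0.25, 0.23, and 0.26 in the mLP-HP replicates 7, 8, and 9, and 0.22, 0.11, and 0.13 in the mLP-LP replicates 10, 11, and 12.

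The promoters with a quiet input were followed through 4 further conditions, each added to those before it and each asking for a call in the same direction. A call in Cy5 alone left 785 promoters (467 higher and 318 lower). A call in the authors' own processed table, which called 27.4% of all promoters (15.8% higher and 11.6% lower), left 652 (374 and 278), a call after loess left 331 (184 and 147), and a call with the scan as a random block left 122 (81 and 41). These conditions share the same 6 arrays and are not independent of each other. At the 184 promoters called higher up to loess, the medians were 0.31, 0.28, and 0.31 in mLP-HP replicates 7, 8, and 9, 0.27 in mLP-LP replicate 10, and 0.12 and 0.10 in mLP-LP replicates 11 and 12. At the 81 that also passed the scan block, mLP-LP replicate 10 was at 0.34 and the mLP-HP arrays at 0.36 to 0.40. Also in the promoters that met every condition, mLP-LP replicate 10 thus lay beside the mLP-HP arrays.

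With loess and the random scan block in a single fit, 2 promoters were called, both lower (0.0125% of those tested), with 2186 at an unadjusted p under 0.05 in limma. They lay at chr18:16240587-16244084 and at chrUn:426940-428670 on unplaced sequence, and are named here because they were the only calls of that fit. In the quantile normalized ratio neither was called, with differences of 0.09 and −0.11, and both had a higher input in the mLP-HP group, by 0.74 and 0.54. Each belonged to the least enriched promoters, with a log2 ratio of −3.33 and −2.93 in the mLP-CN group. Their differences in the fit that called them were −0.74 and −0.96. Both had a very bright input, with a mean log2 Cy3 of 10.57 and 11.15 on the mCN-CN and mLP-LP arrays. The median over all promoters was 7.69, and 11.15 was the highest value of any promoter.

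The largest rises and falls among called promoters with a quiet input, arrays without overlap, and the same direction in the authors' table were next described. The largest rise was at chr2:87929393-87929913, a promoter of 4 probes. Its log2 ratio was −0.81, −0.79, and −0.76 in mLP-CN replicates 4, 5, and 6 and 0.07, 0.05, and −0.10 in mLP-HP replicates 7, 8, and 9. All mLP-HP arrays lay above all mLP-CN arrays, and the mLP-HP group reached the array-wide middle from a position of low enrichment. The difference was 0.79 (standard error 0.10, adjusted p = 6.46e-05 in limma). The input differed by 0.05 (adjusted p = 0.514 in limma), with log2 Cy3 of 8.93 ± 0.04 (SD, n = 3) in the mLP-CN and 8.98 ± 0.07 (SD, n = 3) in the mLP-HP arrays.

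At the same promoter the precipitated channel rose by 0.35 (adjusted p = 0.00835 in limma). The 4 probes differed by 0.90, 0.15, 0.65, and 1.47 in order of position, and the second of them was well above background in Cy5 on only 5 of the 12 arrays. After loess the difference was 0.27 (adjusted p = 0.0182 in limma). The loess means were −0.63 in the mLP-CN and −0.36 in the mLP-HP arrays, so that in this setting the mLP-HP group stayed below the array-wide middle. The mLP-LP replicate 10 had a ratio of −0.14, near the mLP-HP arrays, while mLP-LP replicates 11 and 12 were at −0.66 and −0.64 and the mCN-CN arrays between −0.96 and −0.66.

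The next largest rise was at chr6:25446164-25446871, where all 3 probes were well above background in both channels on all 12 arrays. The ratio was −0.07, −0.09, and 0.09 in mLP-CN replicates 4, 5, and 6 and 1.00, 0.56, and 0.62 in mLP-HP replicates 7, 8, and 9. This promoter started near the middle of the array and ended among the enriched ones. The difference was 0.75 (standard error 0.17, adjusted p = 0.00245 in limma), with an input difference of −0.04. In Cy5 the difference was 0.37 (adjusted p = 0.0630 in limma), and after loess it was 0.27 (adjusted p = 0.224 in limma), neither past the threshold. Nor was the ratio with the scan as a random block, where the difference was 0.52 (adjusted p = 0.0927 in limma). Again mLP-LP replicate 10 (0.74) lay among the mLP-HP arrays and replicates 11 and 12 (−0.22 and −0.17) did not.

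Both of the largest falls lay on the X chromosome and on dim probes. At chrX:74472567-74473588 (5 probes) the ratio was 0.42, 0.18, and 0.29 in mLP-CN replicates 4, 5, and 6 and −0.30, −0.32, and −0.39 in mLP-HP replicates 7, 8, and 9. The groups did not overlap, and the difference was −0.63 (standard error 0.08, adjusted p = 5.81e-05 in limma) with an input difference of −0.07. In order of position, the 5 probes were well above background in Cy3 on 0, 3, 0, 12, and 12 of the 12 arrays. The quiet input here thus rests partly on values near background. The Cy5 difference was −0.36 (adjusted p = 0.00208 in limma), although 3 of the 5 probes were not well above background in Cy5 on any array and another was on 1 array only. The single probe that was well above background on all 12 arrays differed by −0.11 (adjusted p = 0.684 in limma). After loess the promoter's difference was −0.23 (adjusted p = 0.0323 in limma). Before loess, mLP-LP replicate 10 had −0.31, among the mLP-HP arrays, and mLP-LP replicates 11 and 12 had 0.02 and −0.09. The mCN-CN arrays were between −0.03 and 0.17.

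At chrX:79222797-79223843 (7 probes) the ratio was 0.36, 0.35, and 0.12 in mLP-CN replicates 4, 5, and 6 and −0.26, −0.33, and −0.37 in mLP-HP replicates 7, 8, and 9. The difference was −0.59 (standard error 0.08, adjusted p = 6.23e-05 in limma), and the input differed by 0.07. In order of position, the 7 probes were well above background in Cy3 on 12, 0, 12, 5, 1, 12, and 12 arrays, so this input too rests partly on values near background. In Cy5 the difference was −0.12 (adjusted p = 0.111 in limma), not past the threshold. Here 4 of the 7 probes were not well above background in Cy5 on any array, and 1 was on all 12, with a difference of −0.90 (adjusted p = 0.00146 in limma). After loess the difference was −0.12 (adjusted p = 0.152 in limma), past the threshold no longer. The mLP-LP replicates 10, 11, and 12 had −0.35, −0.13, and −0.21, and the mCN-CN arrays were between −0.17 and 0.08.

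Where the input did differ, it could be larger than the ratio. At chr1:96038097-96038624 (4 probes, all well above background on all arrays in both channels) the log2 Cy3 was 8.94, 8.87, and 8.84 in mLP-CN replicates 4, 5, and 6 and 8.03, 8.07, and 8.10 in mLP-HP replicates 7, 8, and 9. Both channels were lower in the mLP-HP group, with differences of −0.82 in the input (adjusted p = 8.27e-05 in limma) and −0.46 in the precipitated DNA (adjusted p = 0.00250 in limma), and the ratio rose by 0.50 (adjusted p = 0.000388 in limma). With the median in place of the mean over the probes, the ratio differed by 0.34 (adjusted p = 0.0627 in limma), past the threshold no longer. The input of mLP-LP replicate 10 was 8.16, and in mLP-LP replicates 11 and 12 it was 8.87 and 8.77. At chr3:97867887-97869648 (8 probes, 5 of them not well above background in Cy5 on any array) the input rose by 0.85 (adjusted p = 3.94e-05 in limma) and the ratio fell by 0.53 (adjusted p = 0.000193 in limma). The Cy5 difference there was 0.17 (adjusted p = 0.0694 in limma), and 1 of its probes differed the other way, by 0.71.

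The called promoters were ordered strongly by the brightness of their input. Promoters were divided into 5 classes of equal size (quintiles) by mean log2 Cy3 on the mCN-CN and mLP-LP arrays, which are on neither side of the comparison. From the dimmest to the brightest quintile, 0.687%, 2.84%, 11.6%, 27.9%, and 63.2% were higher in the mLP-HP group, and 56.1%, 20.2%, 6.37%, 2.06%, and 0.624% were lower. Spearman's rho between the difference and this brightness was 0.74 across 16023 promoters, which share the 6 arrays and are not independent.

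A quiet input did not change this order. Among promoters with a quiet input, 0.668% of the dimmest and 62.3% of the brightest quintile were higher, 54.8% and 0.175% were lower, and rho was 0.744 (n = 6489). After loess the shares were nearly flat, between 9.77% and 11.9% higher and between 10.3% and 14.2% lower, and rho was 0.03. Loess called 1732 promoters higher (10.8%) and 1957 lower (12.2%), together 23%. Of these, 885 higher and 885 lower were also called in the same direction without loess, and 87 and 48 of the higher and lower calls without loess changed direction. Loess removes any relation to brightness on an array, whatever its source, and the source was not tested. The promoters that met every condition above were still ordered by brightness. Of the 81 higher ones 51.9% lay in the brightest quintile, and of the 41 lower ones 75.6% lay in the dimmest. Before the scan block was added as a condition, these shares were 31.5% of 184 and 40.1% of 147.

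Probe length followed the same line and remained after loess. Probes on this array were 45 to 60 bases long, and in such designs longer probes are generally placed where the sequence is richer in A and T. In the quintile of promoters with the shortest probes 44.2% were higher and 3.93% lower, and in the quintile with the longest probes 4.24% were higher and 41.8% lower. After loess the shares were 24.0% and 1.87% for the shortest and 1.37% and 34.0% for the longest probes. Spearman's rho between the difference and the mean probe length was −0.49 without and −0.50 with loess (n = 16023 promoters). The input moved along with it. Its median Cy3 difference was −0.09 in the quintile with the shortest and 0.16 in that with the longest probes. Among promoters with a quiet input, 40.5% were higher and 4.96% lower with the shortest probes. With the longest probes 4.45% were higher and 44.96% lower, and rho without loess was −0.457 (n = 6489). After loess the shares with a quiet input were 17.9% and 1.65% for the shortest and 1.59% and 14.8% for the longest probes. The part of the input in the relation was not tested beyond this.

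**Figure D2:**
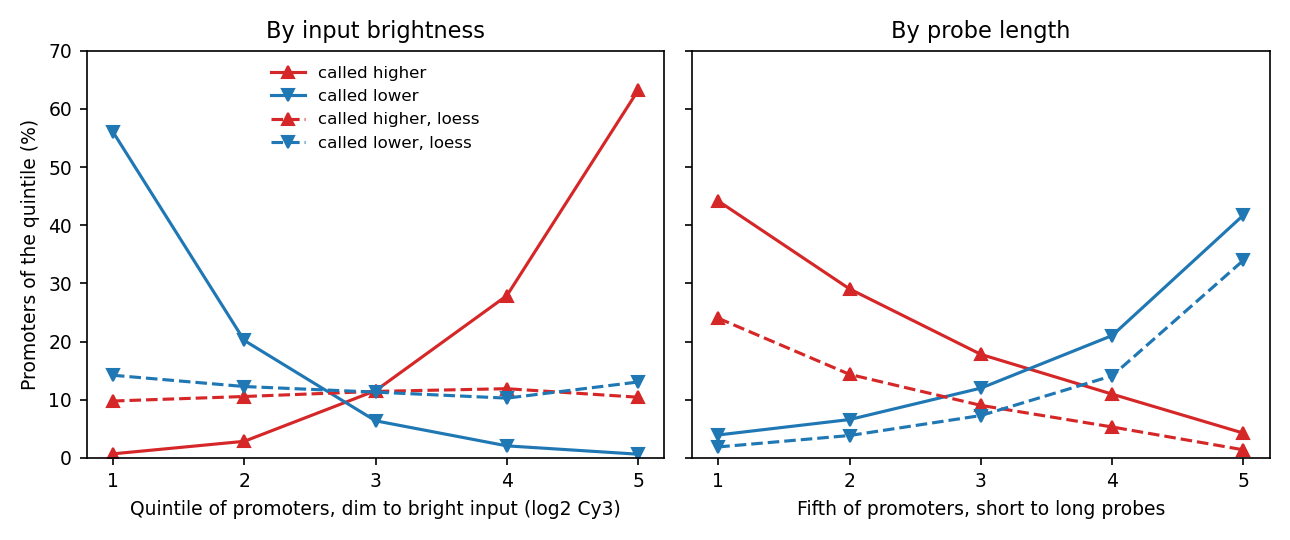
Percent of promoters called higher (red) and lower (blue) in the mLP-HP group, by quintile of input brightness (left, dim to bright) and of mean probe length (right, short to long), for the quantile normalized ratio (solid) and after loess (dashed). On the left the lines cross, with 63.2% higher in the brightest quintile, and are flat after loess; on the right the slope is present with and without loess.

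The starting methylation level, taken as the log2 ratio of the mLP-CN group, was related to the direction of change mainly at its upper end. From the lowest to the highest quintile, 22.8%, 25.9%, 24.0%, 22.3%, and 11.2% of promoters were higher in the mLP-HP group and 17.4%, 16.6%, 14.7%, 14.95%, and 21.6% were lower. Only in the highest quintile did lower promoters outnumber higher ones. With a quiet input the shares ran from 32.1% to 9.06% for higher and from 10.1% to 26.1% for lower promoters. However, the mLP-CN arrays set both this level and the difference, so that chance deviations of these arrays enter the level and the difference with opposite signs.

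With the level taken from the mCN-CN and mLP-LP arrays instead, the order turned round. In the lowest quintile 11.9% of promoters were then higher and 28.7% lower, and in the highest quintile 26.1% were higher and 10.4% lower. The highest quintile by the mCN-CN arrays alone held 22.2% higher and 13.0% lower promoters, and by the mLP-LP arrays alone 29.4% and 8.61%. By mCN-CN replicate 3 alone, the array from the scan of the mLP-CN group, it held 16.5% and 15.6%. On that array 16509 probes were flagged and left out, against 170 and 173 on mCN-CN replicates 1 and 2. With quiet inputs and the level from the mCN-CN and mLP-LP arrays, 17.2% and 22.6% of the lowest and 21.8% and 12.8% of the highest quintile were higher and lower.

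After loess the relation to the starting level was steep and positive by either set of arrays. By the mLP-CN level, 2.03% of the lowest and 22.4% of the highest quintile were higher, and 38.5% and 1.44% were lower. By the level in the mCN-CN and mLP-LP arrays, 1.22% and 26.3% were higher and 41.7% and 0.874% lower. In this setting calls at enriched promoters were mostly in the higher direction and calls at poorly enriched promoters mostly in the lower direction. Low and high promoters also differed in probe length. The mean was 51.9 bases in the lowest and 47.3 in the highest quintile by mLP-CN level. Before loess, tertiles of probe length were crossed with tertiles of the level in the mCN-CN and mLP-LP arrays. With the longest probes, 33.4% to 38.5% were lower at every tertile of the level. With the shortest probes, the share of higher promoters fell from 50.6% at the lowest to 34.5% at the highest level. In the middle tertile of length it fell from 26.1% to 13.1%. The rise of higher calls with this level over all promoters was thus not seen within tertiles of probe length.

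**Figure D3:**
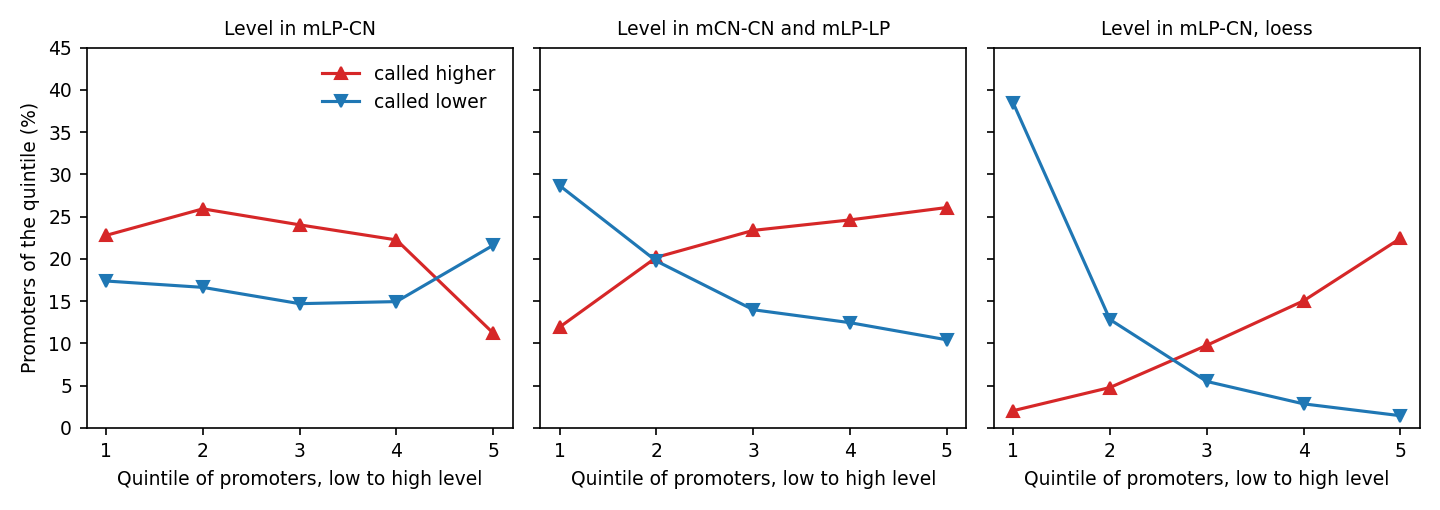
Percent of promoters called higher (red) and lower (blue) in the mLP-HP group, by quintile of methylation level from low to high, with the level from the mLP-CN arrays (left), from the mCN-CN and mLP-LP arrays (middle), and from the mLP-CN arrays after loess (right). The highest quintile holds 11.2% higher promoters on the left and 26.1% in the middle, and after loess 22.4%.

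By chromosome, the X chromosome stood apart before loess. Of its 559 promoters 14.1% were higher and 32.7% lower, with a median difference of −0.07, against 21.4% and 16.5% of the 15365 promoters on autosomes. After loess this turned round, with 14.3% of X promoters higher and 6.44% lower and a median of 0.03, where 10.7% and 12.4% of autosomal promoters were. The input of X promoters was dimmer, with a median log2 Cy3 of 7.41 against 7.69 over all promoters. Their probes were also longer, with a mean of 50.4 bases against 49.1 over all promoters. Males carry a single X chromosome. The part of X copy number or of probe length in the dim input and in these shares was not tested. Within the dimmest quintile of input, 65.9% of 246 X promoters and 55.2% of 2947 autosomal promoters were lower. In the brightest quintile, 69.8% of 53 X promoters and 63.0% of 3121 autosomal promoters were higher.

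Among the autosomes, chromosome 12 had the largest share of higher promoters (30.6%, with 9.35% lower), followed by chromosomes 20 (29.96% and 14.1%), 19 (28.6% and 8.79%), and 10 (26.1% and 10.5%). The smallest shares were on chromosomes 11 (15.5% and 20.4%), 2 (15.8% and 19.7%), and 13 (15.9% and 20.6%). After loess, chromosomes 19 and 12 kept more higher than lower promoters (17.6% and 5.28%, and 14.7% and 4.67%), and on chromosome 20 the shares became 11.8% and 12.2%. Chromosomes 12 and 19 also had the shortest probes, with means of 47.6 and 47.7 bases against 49.1 over all promoters.

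**Figure D4:**
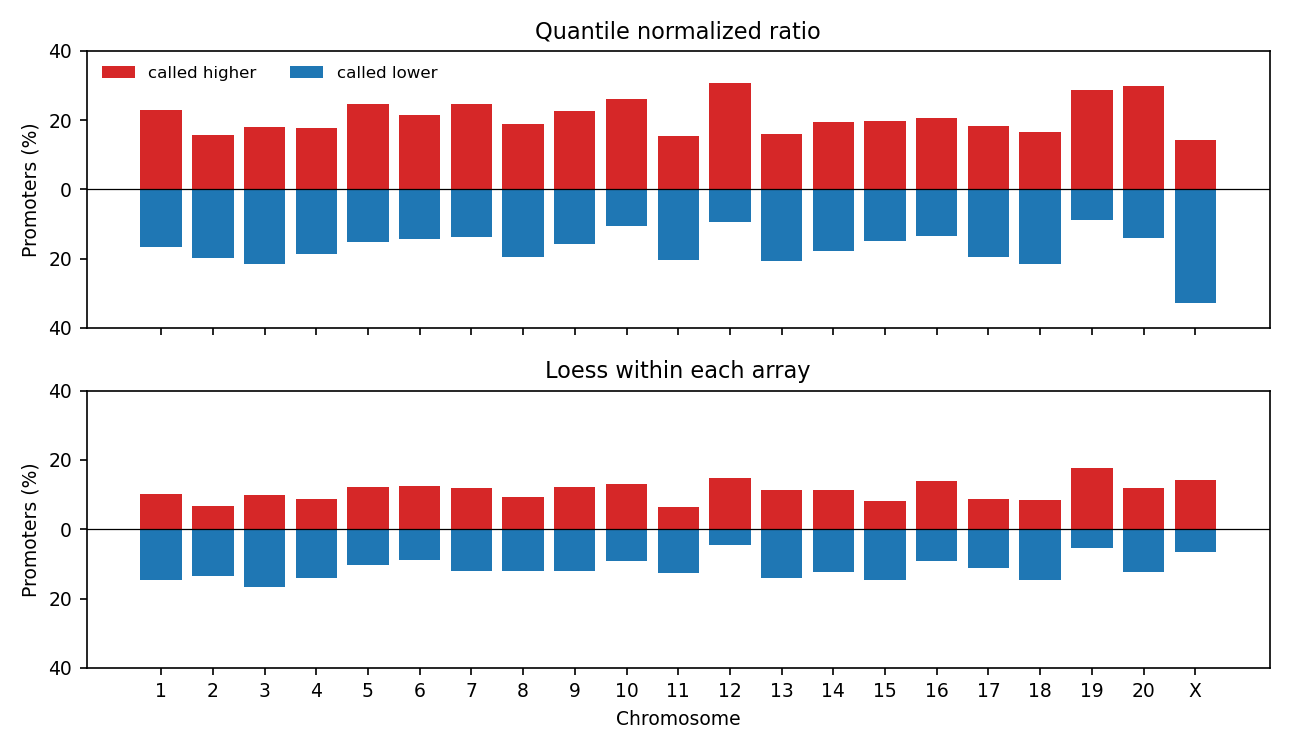
Percent of promoters called higher (upward, red) and lower (downward, blue) in the mLP-HP group on each chromosome, for the quantile normalized ratio (top) and after loess (bottom). The X chromosome has the largest share of lower promoters at the top (32.7%) and one of the smaller shares at the bottom (6.44%).

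The differences of neighbouring promoters were weakly correlated over short distances. For 1815 pairs of adjacent promoters 1 to 10 kb apart, Pearson's r between their differences was 0.24. It was 0.16 for 8961 pairs 10 to 100 kb apart 0.05 for 4708 pairs 100 to 1000 kb apart, and 0.05 for 517 pairs farther apart. Where both members of a pair were called, the direction was the same in 77.8%, 67.7%, 54.9%, and 56.9% of pairs. After loess r was 0.25, 0.24, 0.16, and 0.13, so that it did not vanish at the longest distances. Promoters share the same 6 arrays and are not independent replicates.

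In windows of 2 Mb with at least 10 promoters, of which there were 578, the highest share of higher promoters was on chromosome 8 between 20 and 22 Mb, with 25 of 38 higher and 0 lower. Of the 18 promoters there with a quiet input, 15 were higher, and after loess 10 of the 38 were higher and 0 lower. On chromosome 20 between 4 and 6 Mb, 40 of 74 promoters were higher and 7 lower, and after loess 10 and 4. The highest share of lower promoters was on chromosome 17 between 42 and 44 Mb, with 9 of 12 lower, and after loess 5 of 12. Among larger windows, chromosome 3 between 70 and 72 Mb had 43 of 66 promoters lower and 0 higher, 10 of the 18 with a quiet input among them, and after loess 23 lower and 0 higher. Its probes had a mean length of 57.1 bases, and those of the window on chromosome 8 a mean of 46.9. These windows were chosen for their shares, which are therefore given as a description.

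Within a promoter the shares varied little up to 1000 bp from the middle. In 15038 promoters of 1000 to 2500 bp, 21.1% of probes within 200 bp of the middle were higher and 22.9% lower, and at 600 to 800 bp from the middle 22.3% and 21.6% were. Among the 956 probes at 1000 to 1200 bp, 19.4% were higher and 27.9% lower, with a median difference of −0.10. Over all 171133 probes tested, 37063 were higher (21.7%) and 37618 were lower (22%), together 43.6%. A median of 70% of the probes of a higher promoter and 75% of those of a lower promoter had the sign of the promoter. All probes had the same sign in 76 higher promoters (2.23%) and 135 lower promoters (4.94%), compared with 1.34% of all promoters tested. The call rests on the mean of these same probes, and all promoters tested include the called ones. A larger share among called promoters is therefore partly built in. Lower promoters were fewer where a promoter had more probes, with 19.4% lower in the quintile with the fewest probes and 13.7% in the quintile with the most, while 21.3% and 21.8% were higher.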

How the data were processed

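MeDIP-chip data of kidney DNA from 12 rats' arrays, 3 per group, were used. Groups and replicate numbers came from the sample labels. The authors deposited Agilent Feature Extraction 11.0.1.1 output per array, with uncorrected median intensities of each spot and its local background in Cy5 and Cy3, and flags for outlier spots and for spots well above background. The authors also deposited a table of processed log2 values per probe, whose exact steps are not stated in the files; their Methods name median centering, quantile normalization, and smoothing. Positions are on build rn4, counted from 1.

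From the intensities, normexp background correction (offset 50) was applied over all spots, control spots were removed, flagged spots were set missing, and log2 Cy5/Cy3 was median centered and quantile normalized. Cy3 and Cy5 were also quantile normalized on their own. Limma 3.58.1 in R 4.3.3 was fitted to promoter means (at least 3 probes, joined at gaps under 1000 bp) with all 12 arrays in 4 groups (8 residual degrees of freedom), with Benjamini-Hochberg adjustment over all promoters and a threshold of 0.05. A spot missing on an array was left out of that promoter's mean. The fit was tested on simulated data. The number of arrays limits the precision.

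Named promoters were the 2 largest rises and the 2 largest falls among those with an adjusted p under 0.05, arrays without overlap, a quiet input, and the same direction in the processed table, plus the riser with the largest fall and the faller with the largest rise in input. Promoters of the fit with loess and scan block and the 2 Mb windows were chosen after their values were seen. The comparison, the groups of promoters, and the rules were chosen with earlier results of these data known. Alternatives covered background correction, normalization, flags, dim probes, probe length, region rules, array weights, scan, and arrays left out. Lists of genes could not be used, since no gene names were at hand for these probes.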

Additional observations from a re-analysis of the deposited data

How the results depend on the processing

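The number of promoters called, 6136 in the main setting, was 3853 without background correction, 9647 with median centering only, 3689 after loess, 3617 with probes well above background on all 6 arrays, 1551 with the scan as a random block, and 3620 at an adjusted p under 0.01. Of the settings added after seeing the data, centering within classes of input brightness gave 3025 (190 higher and 2835 lower, with a median over all promoters of −0.08), and loess with the random scan block gave 2. The other settings that kept all arrays stayed within 1.5 times. Leaving out 1 of the 6 arrays gave 4299 to 5308, and leaving out mLP-LP replicate 10, also added later, gave 6939. With a quiet input, the count of 2425 became, in the same order, 1541, 3639, 975, 1519, and 576, then 1107 and 0 for the added settings. It was 1266 with an input limit of 0.05, 785 when Cy5 had to be called too, 0 when the whole 95% interval of the input difference had to lie inside 0.1 (no interval in limma was that narrow), and 1664 to 2035 with 1 of the 6 arrays left out. Of the 2425 promoters, 68 (50 higher and 18 lower) were called in the same direction in all of 12 planned settings that kept every array of the comparison.

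Under the random scan block, input calls fell from 6605 to 1255, the Cy5 calls from 5305 to 757, and the probe calls from 74681 to 13281; loess left 30320 probes. Leaving out 1 of the 6 arrays gave 4736 to 5872 input calls and 3101 to 3629 Cy5 calls. The highest quintile of the starting level held 11.2% higher promoters by the mLP-CN arrays, 26.1% by the mCN-CN and mLP-LP arrays, 22.2% and 29.4% by each of these groups alone, and 22.4% after loess. For lower promoters the values were 21.6%, 10.4%, 13.0%, 8.61%, and 1.44%. The cause of these shifts was not tested.

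None of the 6 named promoters reversed in any setting. Their differences lost significance in 1 to 4 of 22 or 23 settings, and all 6 did so with loess and the random scan block. Both named promoters on the X chromosome had too few probes to be tested in the setting with only probes well above background. This is not counted as a loss. None of the 18 lower promoters called in all 12 planned settings lay on the X chromosome, and none of the 50 higher ones did. The X chromosome held 6.70% of the promoters called lower and 3.49% of all tested. The setting with only probes well above background is among these 12, and a promoter with too few such probes cannot be called there. The absence of X promoters from these sets therefore does not show whether their falls hold in the other settings. No paired analysis was possible because the groups share no replicate numbers. A promoter with dim probes has little precipitated signal behind its ratio, which limits the promoters on the X chromosome and on chromosome 3. Scan and diet cannot be told apart here.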
